A study of Homo sapiens with 4 samples.

Results

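Oncofetal genes are active in embryonic or fetal tissue, quiet in most adult tissue, and active again in some tumours. The 9 genes described here are AFP, IGF2BP1, IGF2BP2, IGF2BP3, LIN28B, HMGA1, HMGA2, PEG10 and GPC3. They were taken by gene symbol from the 34692 entries of the deposited signal table, and each of the 9 symbols has 1 entry. The set was selected on values of this comparison, because AFP was already known to have a lower signal with ZNF16, and the other genes were added by their function. Their differences between the groups are therefore given as a description, with no test.

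The RNA came from K562, an established human line of chronic myelogenous leukaemia, and was hybridised to Illumina HumanHT-12 V4.0 beadchips. There were 2 arrays of stable transductants over-expressing ZNF16, a zinc finger gene, and 2 arrays of stable control transductants. The labels give no vector, promoter, clone or pool for the transductants and no treatment time, and both groups share the line and the medium. Nothing says that the arrays of a group came from separate cultures, so the spread between them may be technical. Between 9913 and 10762 entries were detected per array. The ZNF16 entry was not detected on any of the 4, with detection p-values from 0.343 to 0.693, and whether its probes lie in the transduced sequence is not known, so it does not check the labels.

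Of the members, LIN28B, HMGA2 and the IGF2BP genes are linked through let-7 microRNAs. No such link is described here for AFP, GPC3, PEG10 or HMGA1. LIN28B is an RNA-binding protein that blocks the maturation of let-7 microRNAs. Members of the let-7 family repress HMGA2, IGF2BP1, IGF2BP2, IGF2BP3 and LIN28B itself. The IGF2BP proteins bind and stabilise mRNAs such as that of IGF2, and HMGA proteins bend AT-rich DNA in chromatin. AFP is the main plasma protein of the fetal liver and yolk sac, GPC3 is a cell-surface heparan sulfate proteoglycan, and PEG10 is a paternally expressed gene derived from a retrotransposon. In human erythroid cells, LIN28B and IGF2BP1 are known to raise fetal haemoglobin when expressed in adult cells, and K562 is known for its fetal and embryonic globins.

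The let-7 sequences are shown because they join LIN28B to HMGA2 and the IGF2BP members. The RefSeq table used here (GRCh38.p14) holds 12 let-7 and miR-98 genes, and mature let-7 itself was not analysed here. The genes give 9 different mature sequences of 22 bases. The capitals mark the seed, bases 2 to 8, which is the same in all 9, so they form 1 seed group.
let-7a-5p: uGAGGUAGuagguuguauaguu
let-7b-5p: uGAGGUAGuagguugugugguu
let-7c-5p: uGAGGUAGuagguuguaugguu
let-7d-5p: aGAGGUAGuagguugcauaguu
let-7e-5p: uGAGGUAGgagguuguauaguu
let-7f-5p: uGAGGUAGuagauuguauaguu
let-7g-5p: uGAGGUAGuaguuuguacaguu
let-7i-5p: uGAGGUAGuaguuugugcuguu
miR-98-5p: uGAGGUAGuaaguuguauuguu

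Promoters were available for 5 of the 9 members, AFP, IGF2BP2, IGF2BP3, LIN28B and HMGA1, in 8 windows of 250 bases before a start site. The pair below is shown to set the AT-rich AFP window beside one that is rich in CG. The first is AFP at chr4:73435971-73436220 and the second is the first of the LIN28B starts at chr6:104940715-104940964, both on the plus strand of GRCh38.p14 and credited to RefSeq. Capitals in the AFP window mark the letters TATAAA, the core promoter box that places the start site. Capitals in the LIN28B window mark the dinucleotide CG.
AFP: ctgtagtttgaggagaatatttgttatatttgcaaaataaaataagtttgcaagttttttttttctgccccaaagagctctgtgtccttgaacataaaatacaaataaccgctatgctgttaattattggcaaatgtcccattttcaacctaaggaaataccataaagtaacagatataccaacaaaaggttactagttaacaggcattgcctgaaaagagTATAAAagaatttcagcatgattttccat
LIN28B: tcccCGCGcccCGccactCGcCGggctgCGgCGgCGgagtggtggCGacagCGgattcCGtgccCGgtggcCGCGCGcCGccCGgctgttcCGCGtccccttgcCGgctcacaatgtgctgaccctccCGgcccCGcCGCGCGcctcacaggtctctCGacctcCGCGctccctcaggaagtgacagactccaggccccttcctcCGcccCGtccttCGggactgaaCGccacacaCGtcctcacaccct

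The AFP window is AT-rich, with 31.6% G and C and 1 CG, against a median of 58% and 11 over the 35116 promoter windows of the table. It holds TATAAA 29 bases before the start, counted to the first base of the motif. Both strands were searched, and 10.7% of all windows hold it. The printed LIN28B window has 73.6% G and C and 33 CG, while the window of the other LIN28B start has 38.4% and 6. The same split is seen within other members. One HMGA1 window has 74.8% and 30 CG and the other 51.2% and 5. One IGF2BP2 window has 81.6% and 32 CG, and the other, which also holds TATAAA, has 32.8% and 2, close to AFP. The IGF2BP3 window has 56.8% and 15. Composition thus varied widely between starts of one gene, and which start these cells use was not analysed here. A match of these letters is a description of the sequence and not a site of binding.

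Which members the line expresses was read from the deposited detection p-value of each entry, where a value under 0.05 means that the signal stood above nearly all negative-control beads. LIN28B, IGF2BP2 and IGF2BP3 were detected on all 4 arrays, 3 of 9 members, where 22.6% of all entries were. AFP, IGF2BP1, HMGA1, HMGA2 and PEG10 were detected on 1 or 2 arrays, and GPC3 on none. HMGA1 needs a caution, since its p-values do not lie on the steps that single probes give. Such entries were taken to combine several probes, and no source says how their p-values were formed. Its signal exceeded the mean of the negative controls by over 3 of their SD on all 4 arrays, as did those of LIN28B, IGF2BP2 and IGF2BP3. The inferred negative-control means were 369.8 and 393.1 on control replicates 1 and 2 and 387.8 and 388.8 on ZNF16 replicates 1 and 2.

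**Figure D1:**
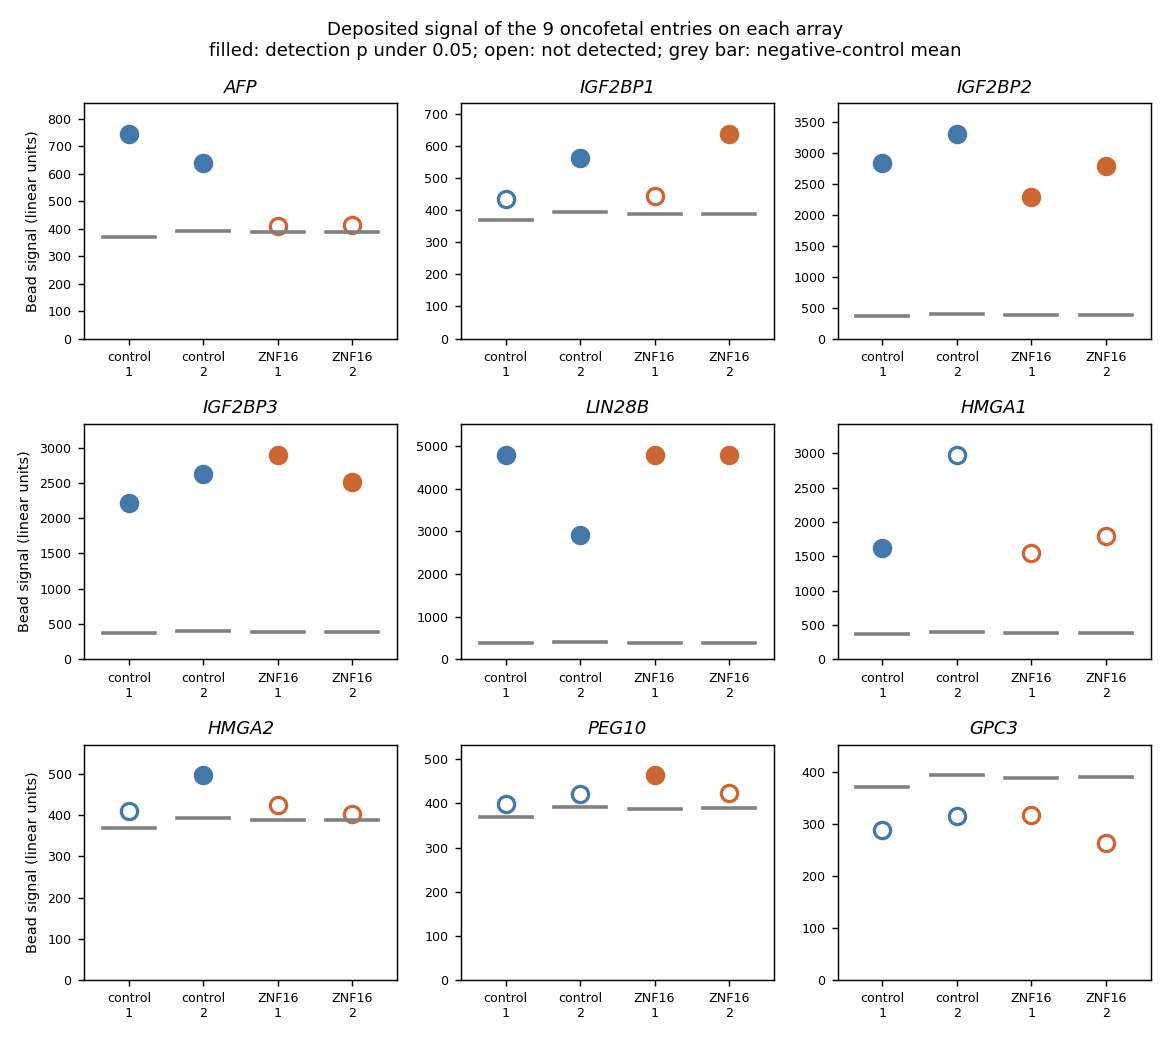
Deposited bead signal (linear units, from 0) of each of the 9 oncofetal entries on the 4 arrays, controls in blue and ZNF16 in orange, filled where the detection p was under 0.05, with the negative-control mean as a grey bar. LIN28B, IGF2BP2, IGF2BP3 and HMGA1 lie far above the bar on every array, AFP only on the controls, and GPC3 lies below it on all 4.

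LIN28B, the blocker of let-7, had signals of 4797.1 and 2920.1 on control replicates 1 and 2 and of 4803.9 and 4797.3 on ZNF16 replicates 1 and 2. Control replicate 2 was low and the other 3 arrays were nearly level, so the groups touch without overlapping. After background correction and quantile normalization the log2 difference, ZNF16 minus control, was 0.40 ± 0.26 (SE, 2 arrays in each group). The 2 controls were 0.60 apart on the same scale, and the difference was 0.10 with the second control left out and 0.70 with the first left out. The related gene LIN28A, listed as LIN28, was not detected on any array, with signals from 316.3 to 395.3.

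IGF2BP2, an mRNA-binding protein, had signals of 2833.0 and 3302.5 in the controls and of 2292.9 and 2790.2 with ZNF16. On the deposited scale both ZNF16 arrays lay below both controls. On the normalized scale the ranges overlap slightly, with control replicate 1 at 11.187 and ZNF16 replicate 2 at 11.188. ZNF16 replicate 1 was the lowest on both scales. Its log2 difference was −0.35 ± 0.25 (SE), which ran from −0.57 to −0.13 as each control in turn was left out.

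IGF2BP3, its close relative and a marker of fetal and tumour tissue, had 2218.9 and 2625.5 in the controls and 2902.2 and 2511.3 with ZNF16. The ranges overlap on both scales, with ZNF16 replicate 1 now the highest. Its log2 difference was 0.15 ± 0.26 (SE), and the sign turned to −0.08 when control replicate 1 was left out and to −0.01 when ZNF16 replicate 1 was.

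IGF2BP1, the third of these proteins, was detected on replicate 2 of each group and on neither replicate 1. Its signals were 434.7 and 562.1 in the controls and 444.2 and 636.1 with ZNF16. The arrays of one group differed more than the groups did, by 0.80 log2 units in the controls and 1.47 with ZNF16, against a group difference of 0.26 ± 0.50 (SE). That difference was −0.48 with ZNF16 replicate 2 left out and 1.00 with ZNF16 replicate 1 left out, and −0.14 with control replicate 1 left out. The replicate numbers are not stated to mark a shared batch.

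HMGA1, a chromatin protein, had 1624.0 and 2980.1 in the controls and 1542.1 and 1796.5 with ZNF16. Control replicate 2 alone was high, 1.24 log2 units above control replicate 1. The group difference was −0.51 ± 0.39 (SE), and it was 0.11 with control replicate 2 left out and −1.13 with control replicate 1 left out. Its detection p was under 0.05 on 1 array, so it was read from a fit over all entries.

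HMGA2 was also taken to combine several probes. Its signals were 411.1 and 497.7 in the controls and 426.2 and 403.3 with ZNF16, and only control replicate 2 was detected. On the normalized scale both ZNF16 arrays lay below both controls, although on the deposited scale the ranges overlap. The log2 difference was −0.36 ± 0.22 (SE), with −0.10 when control replicate 2 was left out and −0.62 when control replicate 1 was.

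PEG10 was near background, in an entry also taken to combine several probes. Its signals were 398.3 and 421.8 in the controls and 464.0 and 424.6 with ZNF16, and it was detected on ZNF16 replicate 1 alone. Both ZNF16 arrays lay above both controls by a small margin, with a log2 difference of 0.24 ± 0.18 (SE) that fell to 0.08 without ZNF16 replicate 1. GPC3 was below the negative-control mean on every array, with signals from 263.1 to 316.1, so it was not above background. Its fitted difference was −0.03 ± 0.17 (SE). HMGA1, HMGA2, PEG10 and GPC3 did not pass the filter on dim entries, which asks for detection on at least 2 arrays, while 5 members did.

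AFP was the gene for whose lower signal the set was selected. It had 745.2 and 640.8 on control replicates 1 and 2, detected on both with a p-value of 0, and 409.8 and 415.5 on the ZNF16 arrays, with detection p-values of 0.403 and 0.351. The ranges do not overlap, and the ZNF16 signals lay close to the negative-control means. The fitted log2 difference was −1.91 ± 0.26 (SE), from 8.23 to 6.32. Because AFP was not detected on either ZNF16 array, the difference is better given as a bound, which put AFP at least 2.49-fold lower with ZNF16. The size of this bound rests on the control arrays and on how background was removed. It was 2.04-fold with control replicate 1 left out and 3.05-fold with control replicate 2 left out. It was 1.40-fold with no correction, 1.87-fold with normexp by maximum likelihood, and 1.07-fold when the negative-control mean and SD were inferred from every entry. The controls were 0.58 apart, and AFP was the only 1 of the 9 members whose group difference exceeded both differences between arrays of one group. Over the tested entries 26.1% did so, and nothing is read from this count, since the contrast chose AFP.

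**Figure D2:**
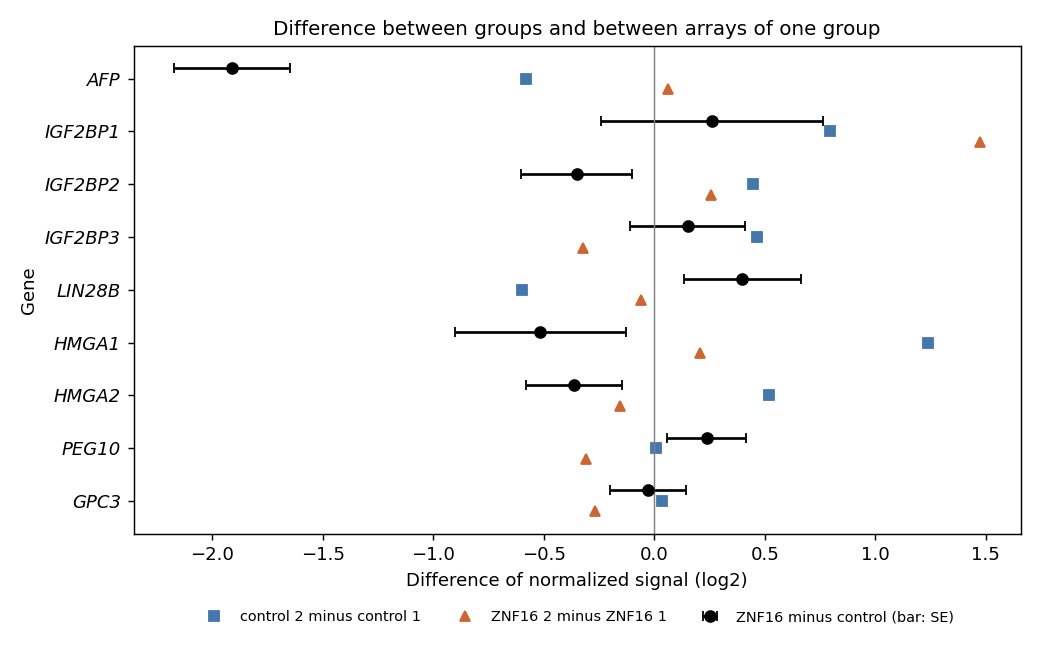
For each of the 9 oncofetal genes, the log2 difference of normalized signal between the groups, ZNF16 minus control (black, bar: SE), between the control arrays (blue squares) and between the ZNF16 arrays (orange triangles). AFP at −1.91 lies outside both of its within-group differences, and in the other 8 genes at least 1 within-group difference is as large as the group difference or larger.

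**Figure D3:**
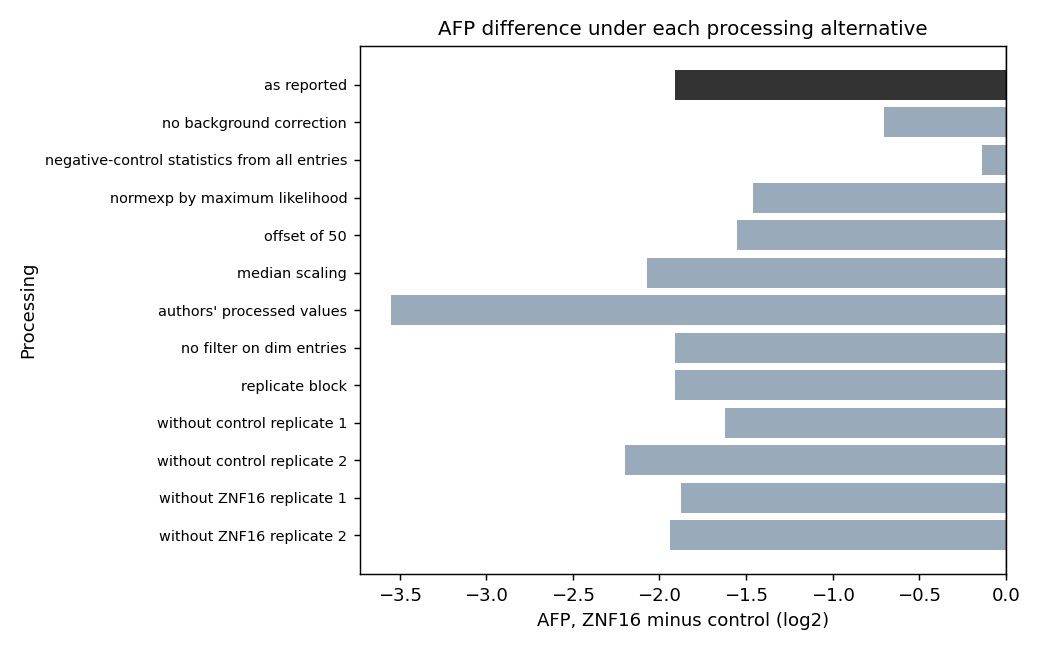
AFP log2 difference, ZNF16 minus control, as reported (dark bar) and under each processing alternative (pale bars), all below 0. No filter and the replicate block could not change it, and AFP was selected for its lower signal. The size runs from −0.14, with negative controls inferred from every entry, to −3.55 in the authors' processed values.

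In all, 4 of the 9 members had groups that did not overlap on the normalized scale, AFP and HMGA2 lower and LIN28B and PEG10 higher, where 36.1% of all entries and 40% of the tested entries did, 19% lower and 21% higher. The fitted difference was above 0 in 4 members and below 0 in 5, with a median of −0.03 against 0.01 over the 10868 tested entries. No entry passed limma's test at an adjusted p under 0.05, 0% of those tested, and 7.68% had an unadjusted p under 0.05. The members, like all entries, set control replicate 2 apart. The median absolute log2 difference of the members was 0.52, 0.70 and 0.60 between control replicate 2 and control replicate 1, ZNF16 replicate 1 and ZNF16 replicate 2, and 0.13 to 0.26 between the other 3 arrays. Over tested entries these values were 0.32, 0.38 and 0.32, and 0.19 to 0.23.

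AFP lies between ALB, which encodes albumin, and AFM, which encodes afamin, both members of the albumin family. ALB had signals of 474.0 and 492.2 in the controls and 469.4 and 429.0 with ZNF16, and was detected on all but ZNF16 replicate 2. Its log2 difference was −0.31 ± 0.23 (SE; limma adjusted p = 0.729). AFM was not detected, with signals from 274.5 to 355.1. Of 22 genes of the albumin family and known or candidate AFP regulators, 5 were detected on all 4 arrays and 10 on none. Those on all 4 include the liver factors FOXA3, with signals from 700.9 to 1008.7 and groups that overlap, and CEBPB. Those on none include the liver factors HNF4A and FOXA2 and the genes ZHX2 and ZBTB20, known in mouse liver as AFP repressors. Of 8 tested, 3 were higher and 5 lower and 0 passed the test.

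The entries nearest to AFP in pattern were sought among entries detected on both controls and on neither ZNF16 array. There were 381 of these, 1.1% of all entries, and the search took the 211 other than AFP whose name is a current RefSeq gene symbol. Likeness was the Euclidean distance between centred log2 values over the 4 arrays. The nearest were ENPP3, an ectoenzyme, at 0.24, TDRG1, a testis gene, at 0.27, PRPH, the neuronal filament protein peripherin, at 0.28 and SEMA4D, a semaphorin, at 0.50. A small distance over 4 arrays describes these arrays only.

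**Figure D4:**
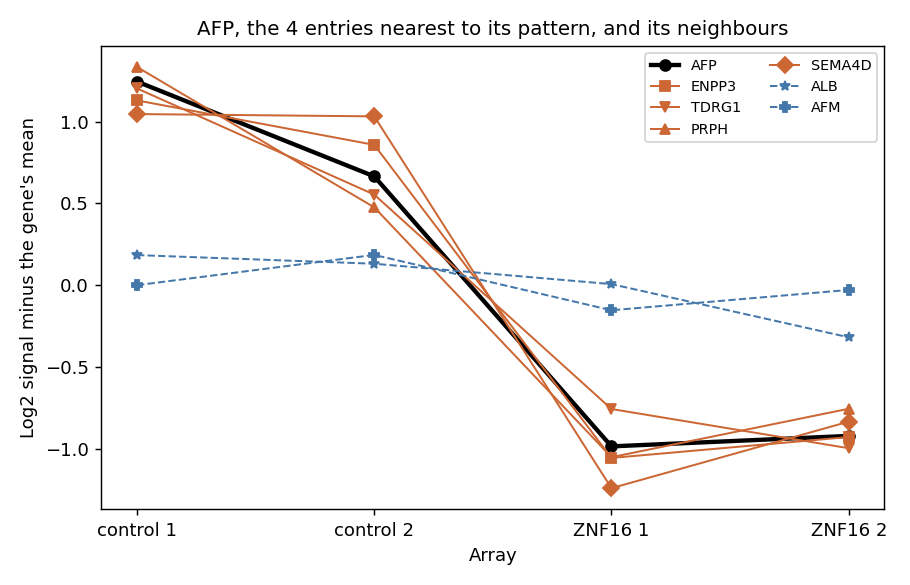
Log2 signal on each array minus the gene's mean over the 4 arrays, for AFP (black), the 4 entries nearest to it (orange) and its genomic neighbours ALB and AFM (blue, dashed); lines only join the points of a gene. AFP and the nearest entries lie above 0 on both controls and below 0 on both ZNF16 arrays. This pattern was set by how they were chosen. The neighbours, which were not chosen by pattern, stay nearer to 0.

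The cells carried the erythroid and fetal programme for which the line is known. Of 17 erythroid markers 16 were detected on all 4 arrays, among them GATA1 and KLF1. The fetal globin chains HBG1 and HBG2 and the embryonic chain HBE1 had signals from 60391.7 to 68826.7, near the top of each array, where a difference could not be seen. Adult HBB was detected on all 4 arrays but close to background, with signals from 521.8 to 565.2. The embryonic chain HBZ had a log2 difference of 0.75 ± 0.25 (SE; limma adjusted p = 0.589) and HBD, the delta chain, 1.04 ± 0.21 (SE; adjusted p = 0.344), neither past the test. LIN28B, IGF2BP2 and IGF2BP3 were thus the members detected beside fetal globin on every array. HMGA1 also lay over 3 SD above the negative controls on each array, but its detection p was under 0.05 on only 1. Of 20 fetal globin genes and regulators 16 were detected on all 4 arrays, with 11 higher and 5 lower, a median of 0.11 and 0 past the test. IKZF1, which encodes the lymphoid and erythroid factor Ikaros, had signals of 800.5 and 775.6 in the controls and 1036.2 and 1142.0 with ZNF16. Its groups did not overlap, and the log2 difference was 0.84 ± 0.21 (SE; limma adjusted p = 0.427). BCL11A, a repressor of fetal globin, was among the 4 genes not detected on any array, with signals from 334.9 to 373.2 in an entry taken to combine several probes.

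Hepatocyte and yolk sac markers were checked because AFP is best known from those tissues. Of 19 such genes, 12 were not detected on any array, including HNF4A, TTR, APOB and SERPINA1, and 4 were detected on all, namely TF, EPCAM, KRT8 and KRT18, which other cell types share. The mean signal of the list was 546.7 to 602.7 in the controls and 578.4 to 588.0 with ZNF16, so the groups overlapped. EPCAM, an epithelial adhesion protein, had a log2 difference of 0.52 ± 0.23 (SE; limma adjusted p = 0.656). Of 12 markers of fibroblast and epithelial cultures, 8 were not detected on any array, and the list's mean signal was 553.5 to 604.4 in the controls and 503.8 to 541.8 with ZNF16, lower without overlap. The 3 tested all had a lower fitted value with ZNF16, as AFP did, with a median of −0.45 and 0 past the test. Of the 10868 tested entries, 5297 were lower. The median of the list was −0.16 with no background correction and −0.09 with no filter on dim entries. With negative controls inferred from every entry it was −0.03. The part of either cell type in the AFP signal was not tested beyond these levels.

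The let-7 pathway around LIN28B was read from 22 genes that make, use, destroy or block let-7, so the list mixes opposed roles. Of these, 18 were detected on all 4 arrays, and LIN28A, AGO4, TRIM71 and DICER1 on none. DICER1 had signals from 399.0 to 436.8 in an entry taken to combine several probes. Among the 18, 11 had a higher and 7 a lower fitted value with ZNF16, with 0 past the test. The median was 0.15 against 0.01 over all tested entries, and under median scaling it was −0.11 against −0.19. XPO5, which exports microRNA precursors from the nucleus, had signals of 2564.3 and 2108.3 in the controls and 2987.2 and 3292.6 with ZNF16, a log2 difference of 0.46 ± 0.21 (SE; limma adjusted p = 0.656). HNRNPA1, which binds microRNA precursors, had 0.61 ± 0.22 (SE; adjusted p = 0.610). SYNCRIP, an RNA-binding protein, had 0.66 ± 0.22 (SE; adjusted p = 0.578). In these 3 genes both ZNF16 arrays lay above both controls, but they were named for their small p, so nothing is read from this. Groups did not overlap in 40% of all tested entries. Among the 18, both ZNF16 arrays also lay above both controls in DROSHA, AGO2 and TENT2. They lay below both in DGCR8, AGO1, TUT4 and TUT7. Entries for let-7 genes themselves were present for 10 of 14 names, and 8 of the 10 were not detected on any array, while MIRLET7D was detected on all 4. These entries were not read as mature let-7.

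Of 26 other targets or candidate targets of let-7, 14 were tested, with 8 higher and 6 lower, a median of 0.05 and 0 past the test. CDK6, a kinase of the cell cycle, had a log2 difference of 0.57 ± 0.22 (SE; limma adjusted p = 0.627) and IRS2, an adaptor of insulin signalling, −0.54 ± 0.25 (SE; adjusted p = 0.656).

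The best-known mRNA partner of the IGF2BP proteins, IGF2, was not detected on any array, with signals from 330.7 to 381.5 in an entry taken to combine several probes. Its reciprocally imprinted neighbour H19, a non-coding RNA, was detected on all 4 and had a log2 difference of 0.45 ± 0.45 (SE; limma adjusted p = 0.813), which turned to −0.16 without control replicate 1. Of 22 genes of the insulin-like growth factor axis 5 were detected on all 4 arrays and 13 on none. Of the 7 tested, 3 were higher and 4 lower. Of 20 partners of IGF2BP proteins 13 were detected on all 4, with 9 higher and 4 lower. None of either list passed the test.

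Among relatives of HMGA1 and HMGA2 in the wider high mobility group, 10 of 12 with an entry were tested, 5 higher and 5 lower. HMGN2, a nucleosome-binding protein, had 0.46 ± 0.22 (SE; limma adjusted p = 0.657). Among 23 other glypicans, syndecans and heparan sulfate enzymes, 13 were tested, 4 higher and 9 lower. GPC2, a developmental glypican, was detected on both controls and on neither ZNF16 array, so it entered the test only through the controls. Its bound was at least 1.36-fold lower with ZNF16 (limma adjusted p = 0.455). The fitted log2 difference of −0.81 fell in size to −0.28 with no background correction and to −0.05 with negative controls inferred from every entry, both smaller than the bound on the same scale. GPC4, the genomic neighbour of GPC3, was not detected on any array. EXTL3, which starts heparan sulfate chains, had −0.58 ± 0.22 (SE; adjusted p = 0.630).

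PEG10 is imprinted, and 29 other imprinted or neighbouring genes were read beside it. Of 11 tested, 9 were higher with ZNF16 and 2 lower, with a median of 0.47 against 0.01 over all tested entries, and 0 passed the test. The 9 higher include DLK1, which was detected on the ZNF16 arrays alone and so entered the test only through that group. With 1 array left out the median ran from 0.28 to 0.51, and it was 0.17 under median scaling, where the median of all tested entries was −0.19. It was 0.24 over entries detected on all 4 arrays. It was 0.21 with no background correction, 0.09 with no filter on dim entries and 0.06 with negative controls inferred from every entry. NDN, the growth suppressor necdin, had signals of 719.0 and 649.7 in the controls and 822.9 and 819.3 with ZNF16, a log2 difference of 0.62 ± 0.24 (SE; limma adjusted p = 0.629). GRB10, an adaptor that restrains growth factor receptors, had 0.61 ± 0.23 (SE; adjusted p = 0.622). SGCE, which shares a promoter region with PEG10, was detected on control replicate 2 alone.

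Of 18 other oncofetal genes, 5 were detected on all 4 arrays and 11 on none, the latter including CEACAM5, SALL4 and TPBG. Of the 6 tested, 3 were higher and 3 lower. DLK1, a fetal Notch-related protein, had signals of 409.0 and 521.9 in the controls and 1361.8 and 1603.1 with ZNF16, the opposite direction to AFP, and did not pass the test (limma adjusted p = 0.0545). It was detected on the ZNF16 arrays alone and so entered the test only through that group, and with no filter its adjusted p was 0.115. CD24, a glycosylated surface protein, went the same way as AFP, with 2111.0 and 2004.9 in the controls and 639.9 and 569.1 with ZNF16. It was detected on all 4 arrays, and its log2 difference of −2.85 ± 0.25 (SE) had the same limma adjusted p as DLK1, not past the test. The DLK1 and CD24 entries were both taken to combine several probes, so how their detection p-values were formed is not known. Those of CD24 were 0.0175 and 0.0317 on ZNF16 replicates 1 and 2. ALPP, the placental alkaline phosphatase, had a log2 difference of −0.54 ± 0.22 (SE; adjusted p = 0.643).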

How the data were processed

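The authors deposited linear bead intensity values and detection p-values for 34692 gene entries on 4 arrays. GenomeStudio 2010.2 is the tool named, per the submitters' processing notes. Genome build, annotation and the way probes were combined: not given in the sources used here. The authors' second table of processed intensity, 34685 entries, served as an alternative with values floored at 1. Entries whose detection p lay on steps of 1 in 770 on every array (27095, with a tolerance of 0.002 steps) were taken as single probes. They gave the negative-control mean and SD for normexp in limma 3.58.1 (R 4.3.3), with an offset of 16, followed by quantile normalization and log2. Entries detected (p under 0.05) on at least 2 arrays, 10868, were fitted with lmFit and eBayes, two-sided, with Benjamini-Hochberg adjustment at 0.05. Members outside the filter were taken from a fit to the whole table. A bound sets the bright group's mean against the dim group's, where each dim array counts at its own value or at the lowest detected single-probe value if that is higher, and is given for single-probe entries only. The procedure was tested on simulated data. Members and lists were chosen with earlier results of these data known. The rule for named genes takes the 9 members, up to 4 genes of smallest p from each list, a list's defining genes, 4 entries nearest to AFP, and HBG1, HBG2 and HBE1. Array number and signal over background limit the precision. Some genes of these lists are not reported here.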

Additional observations from a re-analysis of the deposited data

How the results depend on the processing

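No entry passed limma's test as reported, and the count past the threshold was 3 with normexp by maximum likelihood, 3 with an offset of 50, 3 with a trended and robust variance, 7 with median scaling and 6 in the authors' processed values. With 1 array left out it ran from 0 to 1, and it was 0 with no background correction, with negative controls inferred from every entry, with no filter and with detection on all 4 arrays. The replicate block gave 122 calls. The numbers are not known to pair the arrays. Replicate 2 minus replicate 1 correlated at 0.193 between the groups over tested entries. Counting signals over 3 SD above the negative controls as detected, chosen after seeing the data, gave 4 members on all 4 arrays in place of 3, and a detection p under 0.01 gave 3. The median of the members stayed within the replicate spread in each alternative. AFP was below 0 in all 12 alternatives that gave it a value, and IGF2BP2, LIN28B, HMGA2 and PEG10 kept their sign. The block, no filter and detection on all 4 arrays could not change the difference of a member. AFP was selected for its lower signal, so nothing is read from its constant sign. The sign changed in 2 alternatives for IGF2BP1, 2 for IGF2BP3, 1 for HMGA1 and 3 for GPC3, and H19 ran from −0.16 to 1.06 and FOXA3 from −0.073 to 0.89 with 1 array left out. DLK1 and CD24 each passed the test in 6 alternatives, the block among them, and no other gene named from the lists that was refitted did. Neither passed in several others. With no filter both had an adjusted p of 0.115, with no background correction DLK1 had 0.111 and CD24 0.0959, with negative controls inferred from every entry 0.501 and 0.393, and in the authors' processed values 0.482 and 0.218. DLK1 entered the test only through the ZNF16 arrays. The cause of these changes was not tested. Signals near the negative-control mean limit what can be said of GPC3, PEG10, HMGA2 and IGF2BP1.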
